A study of Mus musculus with 6 samples.

Results

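The 8 genes Cxcr4, Cxcr5, Ccr6, Ccr7, S1pr1, S1pr2, S1pr4 and Gpr183 encode receptors that guide B cells to, and hold them in, the zones of lymphoid tissue. They were taken from the count table by gene symbol, and all 8 were among the 39017 genes listed and the 18268 genes tested. The libraries came from induced germinal center B cells (iGBs), which are splenic B cells of C57BL6/J mice grown for 3.5 days with CD40L, BAFF and IL-4 on a feeder cell line and then separated from the feeders. Control iGBs carried Cg1-cre alone, and Prmt1-null iGBs carried Cg1-cre with Prmt1f/f alleles, so the Cre was shared by both groups. Each group held 3 mice with 1 library per mouse. The libraries of Control replicate 1 and Prmt1-null replicate 3 came from males and the other 4 from females, and the ages were not given in the labels. IL-4 was at 5 ng/ml according to the labels, whereas the study's methods give a lower concentration. Cg1-cre is driven by the γ1 constant region locus, which becomes active after B cell stimulation, so Prmt1 is lost during the response and not before it.

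All 8 proteins are G protein-coupled receptors. CXCR5 follows CXCL13 into the follicle and the germinal center light zone, CXCR4 follows CXCL12 into the dark zone, CCR7 draws activated B cells to the T cell border, and GPR183 (EBI2) follows oxysterols to the outer follicle and is switched off when cells enter the germinal center. CCR6 binds CCL20 and marks naive B cells and precursors of memory B cells. Among the receptors of sphingosine-1-phosphate (S1P), S1PR1 drives exit from lymphoid organs and S1PR2 confines cells to the germinal center through Gα13 and ARHGEF1.

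The 6 libraries held 45343250 to 62774232 counts each, with 17765 to 18520 genes at 10 counts or more. Prmt1 was at 3964, 3924 and 4838 normalized counts in the Control libraries and at 1745, 1478 and 1477 in the Prmt1-null libraries, which left the Prmt1-null mean, summed over all exons of the gene, at 36.9% of the Control mean (edgeR adjusted p = 1.11e-05). Normalized counts are raw counts scaled to a common library size with edgeR's TMM factors. The B cell genes Cd79a, Cd79b, Ms4a1, Cd22, Pax5 and Ebf1 were detected in every library, with Ms4a1 at 2450 to 2710 CPM, the count scaled to the library total. The T cell genes Cd3e, Cd3d and Cd3g stayed at or under 1.05 CPM. The summed level of 8 T cell genes was 15.6 to 19.4 CPM in Control and 22.1 to 24.4 CPM in Prmt1-null libraries, and most of it was Thy1, which also stands on the fibroblast list, and Cd28, which was higher in Prmt1-null iGBs (log2 fold change 1.49, edgeR adjusted p = 0.00309). The 11 fibroblast genes summed to 28.0 to 32.6 CPM in Control and 30.3 to 39.9 CPM in Prmt1-null libraries, with Lum and Postn at 0 counts. The 8 myeloid genes summed to 8.98 to 18.7 and 16.4 to 17.1 CPM, with Adgre1 higher in Prmt1-null iGBs (0.73, edgeR adjusted p = 0.0319), and the 7 plasma cell genes to 1180 to 1300 and 1330 to 1450 CPM. Whether these cells contributed to the receptor values was not tested. In such bulk samples, fewer cells of a type and less RNA per cell cannot be told apart.

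The receptors differed from each other far more than any of them did between the genotypes. Per length, as CPM per kilobase of exon, Cxcr5 stood first at 164 to 182 over the 6 libraries, followed by Gpr183 at 115 to 145. Ccr6 lay at 62.5 to 68.6, Cxcr4 at 48.5 to 60.4, Ccr7 at 31.5 to 39.0 and S1pr1 at 25.5 to 31.3. S1pr4 at 6.07 to 7.15 and S1pr2 at 1.31 to 2.16 were the lowest. The ranges of neighbors in this order did not overlap over the 6 libraries, although Ccr7 and S1pr1 came close. The order of Ccr7 and S1pr1 turned when coding length took the place of exon length, at 62.6 and 72.0 on average, and the ranges of Cxcr4 and S1pr1, of S1pr1 and Ccr7, and of S1pr4 and S1pr2 then overlapped. Cxcr5 and Gpr183 together thus made up the larger part of the receptor transcripts, with mean shares per length of 34.9% and 25.0% in Control and 34.8% and 27.7% in Prmt1-null iGBs.

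**Figure D1:**
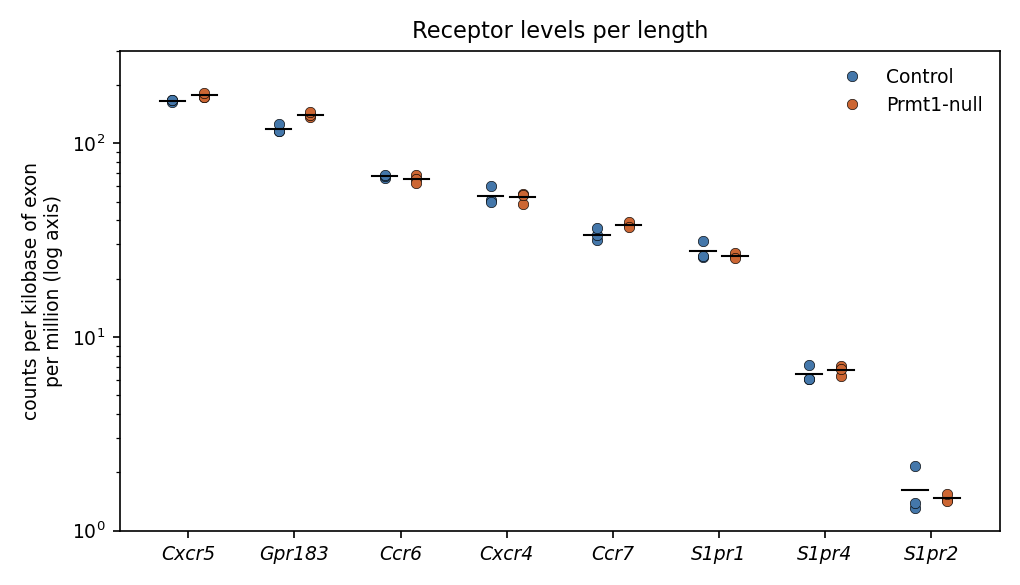
Receptor levels as CPM per kilobase of exon on a log axis for the 8 receptors, with 1 point per library and a bar at the mean of each group (n = 3). Cxcr5 is highest at 164 to 182 and S1pr2 lowest at 1.31 to 2.16, and the genotypes lie close together for every receptor.

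To ask whether loss of Prmt1 altered the transcripts of these receptors, Prmt1-null and Control iGBs were compared gene by gene with edgeR's quasi-likelihood test, adjusted over all 18268 genes. None of the 8 receptors passed an adjusted p under 0.05 with a mean normalized count over 100, a threshold that 1.18% of all tested genes passed (0.58% in the higher and 0.602% in the lower direction). Before adjustment, 2 receptors had a p under 0.05, Gpr183 and Ccr7, both higher in Prmt1-null iGBs, beside 13.5% of all tested genes in either direction and 6.5% in this one. With DESeq2, with or without a prior on fold changes, and with limma-voom, 1 receptor passed, Gpr183, as it did with edgeR when genes with low counts were kept. The libraries of the groups did not overlap for 3 receptors, Gpr183, Ccr7 and Cxcr5, all higher in Prmt1-null iGBs, and the share of all tested genes that did not overlap in that direction was 9.95%. The share that did not overlap in the other direction, which held 0 receptors, was 9.92%. The log2 fold changes ran from −0.138 to 0.242, with a median of 0.018 against −0.001 over all tested genes. For 7 of the 8 receptors the whole 95% interval of the difference lay within a 1.4-fold change in either direction, and S1pr2 was the exception. This held for 50.9% of all tested genes.

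**Figure D2:**
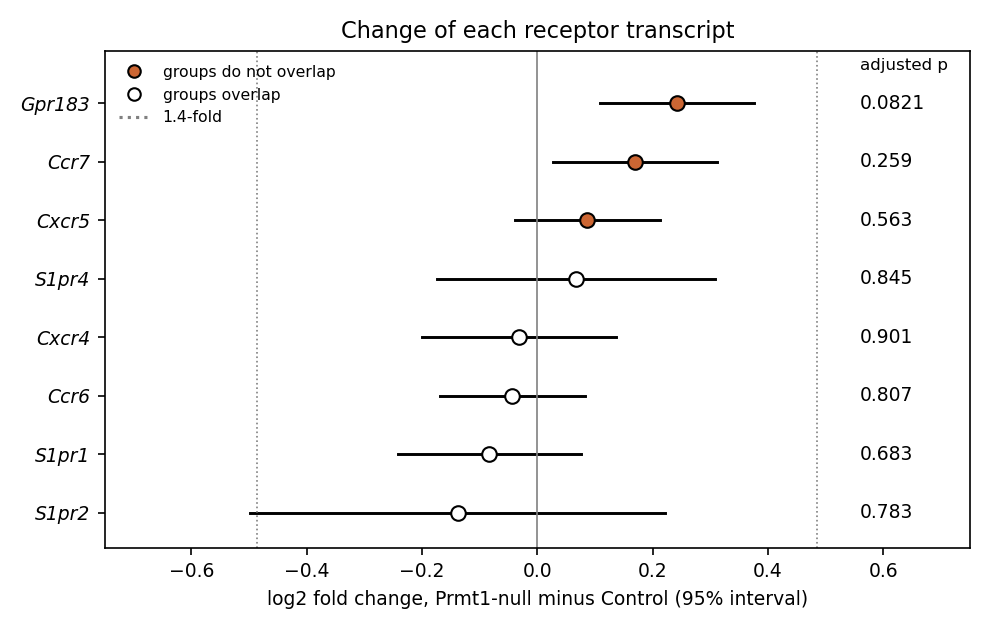
Log2 fold change (Prmt1-null minus Control) of each receptor with its 95% interval and its edgeR adjusted p. Filled points mark the 3 receptors whose groups did not overlap, dotted lines mark 1.4-fold, and only the interval of S1pr2 crosses one of them.

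Gpr183 (ENSMUSG00000051212) occupies chr14:121952551-121965195 (mm10, minus strand). The Control libraries had 18510, 18490 and 20040 normalized counts and the Prmt1-null libraries 21880, 22300 and 23250. Every Prmt1-null library lay above every Control library. The means were 19010 ± 890 (SD, n = 3) and 22480 ± 702 (SD, n = 3), a 1.18-fold difference with a 95% interval of 1.08 to 1.30. The log2 fold change was 0.24 (standard error 0.0619, unadjusted p = 0.00165, edgeR adjusted p = 0.0821), which does not pass the threshold. The log2 fold change hardly moved with the method, from 0.228 to 0.246 over the 8 alternatives with all libraries, while the adjusted p ran from 0.00175 with DESeq2 to 0.127 with the replicate number as a block. With sex in the model it was 0.06. Of the 6 fits that left out 1 library, the adjusted p was under 0.05 only without Control replicate 3 (0.0406), and it was at most 0.273 in the others. The gene lies inside Ubac2, a gene of the opposite strand, with which it shares no exon bases. Ubac2, looked up after the values of Gpr183 were seen, had 1482 ± 93.8 and 1369 ± 42.0 normalized counts (SD, n = 3) and a log2 fold change of −0.116 (edgeR adjusted p = 0.639).

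The promoters of Gpr183 and Cxcr4 are shown because these receptors had the smallest and the largest p of the 8. Each is the 250 bases before the RefSeq start on GRCm38.p6, 5′ to 3′ on the strand of the gene, for Gpr183 chr14:121965194-121965443 (minus strand) and for Cxcr4 chr1:128592300-128592549 (minus strand). Capitals mark matches to 5 motifs searched on both strands, the letters TATAAA of the TATA box, the letters CACGTG of the MYC E-box, the letters TGANTCA of AP-1 sites, the letters GTAAACA bound by FOXO factors and the letters CACCC bound by KLF factors.
Gpr183: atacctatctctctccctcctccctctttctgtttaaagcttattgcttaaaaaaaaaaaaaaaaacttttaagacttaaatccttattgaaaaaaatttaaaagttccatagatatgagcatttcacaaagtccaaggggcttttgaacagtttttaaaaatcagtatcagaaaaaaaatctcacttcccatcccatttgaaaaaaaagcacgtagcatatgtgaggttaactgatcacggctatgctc
Cxcr4: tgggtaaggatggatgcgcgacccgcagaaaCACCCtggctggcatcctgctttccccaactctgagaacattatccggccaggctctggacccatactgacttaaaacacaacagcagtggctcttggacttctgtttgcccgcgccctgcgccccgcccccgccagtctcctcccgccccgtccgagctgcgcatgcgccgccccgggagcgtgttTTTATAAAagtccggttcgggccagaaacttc
The Gpr183 window held none of the motifs, and 32.0% of its bases were G or C, below the 5th percentile of all 32817 windows (34.8%). The Cxcr4 window was 61.2% G or C, against a median of 52.4% over all windows, and held overlapping matches to TATAAA on both strands from 32 bases before the start and a CACCC from base 219 before it. A TATAAA was found in 12.4% and a CACCC in 52.0% of all windows. Windows were at hand for 5 of the 8 receptors, and the 3 receptors without one were Cxcr5, Ccr7 and S1pr1. Over the 6 windows of these 5 genes, 3 held a CACCC, those of Cxcr4, S1pr2 and S1pr4, and the MYC, AP-1 and FOXO motifs were found in 0, beside 6.02%, 6.75% and 3.16% of all windows.

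Ccr7 (ENSMUSG00000037944, chromosome 11, 99144196 to 99155077) showed the next largest difference. It had 3453, 3670 and 3984 normalized counts in Control and 4162, 4275 and 4064 in Prmt1-null libraries, so the highest Control library was just under the lowest Prmt1-null library. The means of 3702 ± 267 and 4167 ± 105 (SD, n = 3) gave a log2 fold change of 0.17 (standard error 0.0661, unadjusted p = 0.0222, edgeR adjusted p = 0.259). The interval of the fold difference was 1.02 to 1.24. The lowest adjusted p among the alternatives was 0.096, without Control replicate 3.

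Ccr6 (ENSMUSG00000040899, chromosome 17, 8236043 to 8257141) showed no such separation of the genotypes. Its normalized counts were 8472, 8736 and 8824 in Control and 8810, 8408 and 8043 in Prmt1-null libraries, and the groups overlapped. The log2 fold change was −0.043 (standard error 0.0585, edgeR adjusted p = 0.807), with an interval of the fold difference from 0.889 to 1.06.

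The 2 receptors that set light zone and dark zone position differed little between the genotypes. Cxcr5 (ENSMUSG00000047880, chromosome 9, 44511787 to 44561877) had 30230, 30870 and 30930 normalized counts in Control and 32160, 32050 and 33560 in Prmt1-null libraries. The groups did not overlap, but the shift was small, with means of 30680 ± 389 and 32590 ± 843 (SD, n = 3). The log2 fold change was 0.087 (standard error 0.0584, edgeR adjusted p = 0.563), and the fold difference lay between 0.974 and 1.16. Of the exon bases of Cxcr5, 3.30% are shared with Bcl9l on the opposite strand, and Bcl9l, also looked up afterwards, had a log2 fold change of 0.032 (edgeR adjusted p = 0.871). Cxcr4 (ENSMUSG00000045382, chromosome 1, 128588199 to 128592293) had 5090, 4986 and 6054 normalized counts in Control and 4859, 5494 and 5420 in Prmt1-null libraries. The highest value was in Control and the lowest in Prmt1-null, with the other 4 between. Its log2 fold change of −0.032 (standard error 0.0783, edgeR adjusted p = 0.901, fold interval 0.870 to 1.10) was smaller than its standard error, and its sign turned without Control replicate 3 (0.063) or Prmt1-null replicate 1 (0.026).

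**Figure D3:**
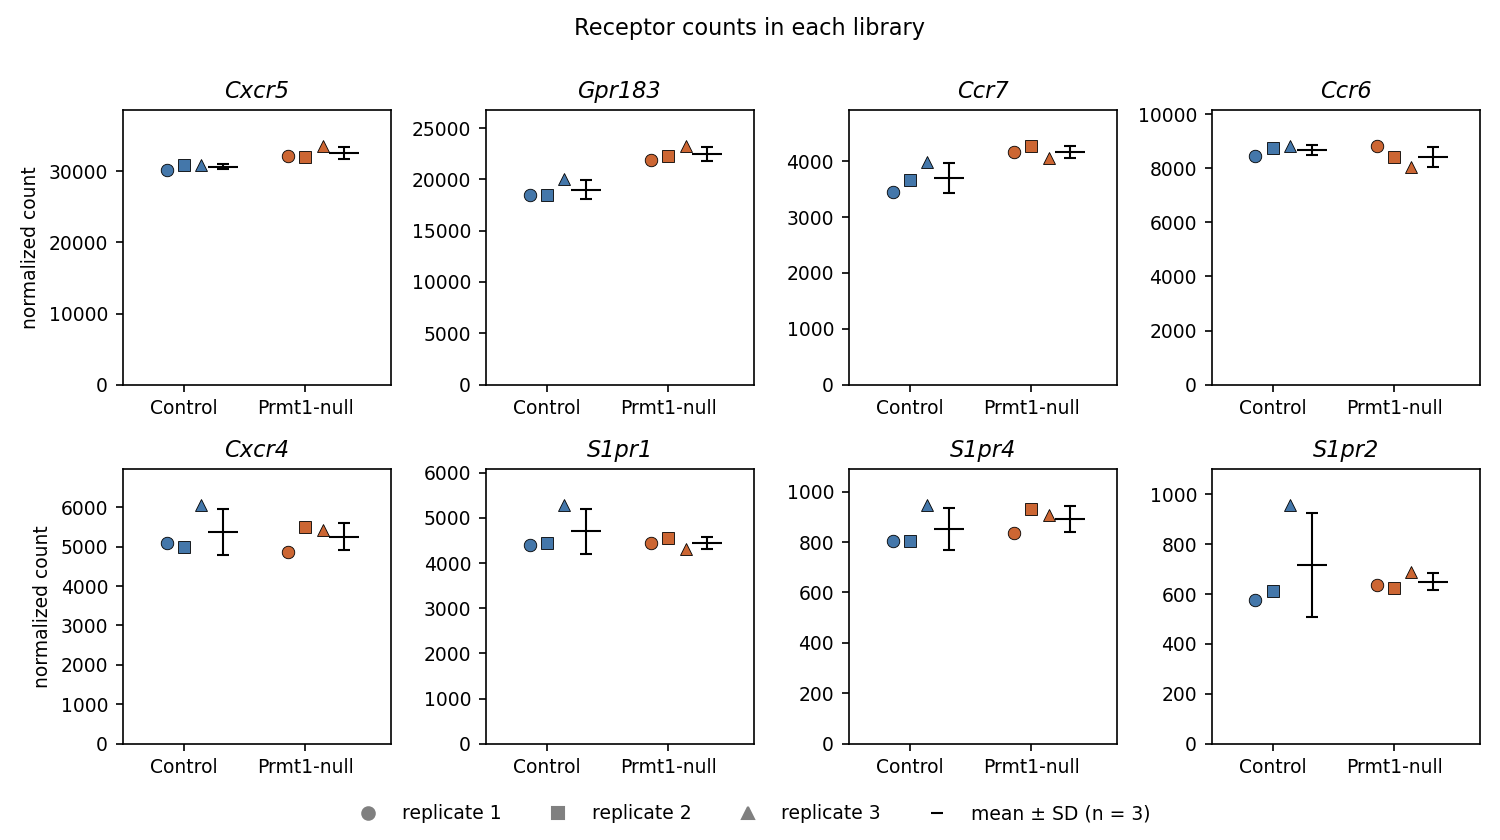
Normalized counts of the 8 receptors in each library, from 0 upward, with replicates 1 to 3 marked by shape and the mean ± SD (n = 3) beside them. The Prmt1-null libraries lie above the Control libraries for Cxcr5, Gpr183 and Ccr7, and Control replicate 3 is the highest of all 6 for Ccr6, Cxcr4, S1pr1, S1pr4 and S1pr2.

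The S1P receptors did not pass the threshold either. S1pr1 (ENSMUSG00000045092, chromosome 3, 115710433 to 115715072) had 4391, 4442 and 5282 normalized counts in Control and 4444, 4566 and 4314 in Prmt1-null libraries, a log2 fold change of −0.083 (standard error 0.0735, edgeR adjusted p = 0.683). Control replicate 3 stood above the other 5 libraries, and without it the log2 fold change was 0.009. S1pr2 (ENSMUSG00000043895, chromosome 9, 20962361 to 20976781) had 577.1, 613.7 and 956.4 normalized counts in Control and 636.9, 625.9 and 687.2 in Prmt1-null libraries. Here again 1 library, Control replicate 3, set the Control mean of 715.7 ± 209 (SD, n = 3), while the Prmt1-null mean was 650.0 ± 32.7 (SD, n = 3). The log2 fold change of −0.138 (standard error 0.167, edgeR adjusted p = 0.783) turned to 0.127 without that library, and the fold interval of 0.708 to 1.17 was the widest of the 8. S1pr4 (ENSMUSG00000044199, chromosome 10, 81497747 to 81500132), a receptor found mainly on lymphocytes, had 803.1, 806.0 and 946.5 normalized counts in Control and 835.3, 932.9 and 908.4 in Prmt1-null libraries. Its log2 fold change was 0.067 (standard error 0.112, edgeR adjusted p = 0.845), and with 1 library left out it ran from 0.027 without Control replicate 2 to 0.150 without Control replicate 3.

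Control replicate 3 ranked as the highest Control library for all 8 receptors and as the highest of the 6 libraries for 5, beside 34.4% and 16.7% of all tested genes. For Cxcr5 and Ccr6 its lead was slight, at 30930 against 30870 and 8824 against 8810 normalized counts in the next library of that ranking. Across the 6 libraries the log2 CPM of Cxcr4, S1pr1 and S1pr2 had Pearson's r of 0.796 to 0.894 between the pairs, and Gpr183 had r = 0.934 with Cxcr5 and r = 0.877 with Ccr7. S1pr4 ran with receptors of both kinds, with r = 0.872 for Cxcr4, 0.717 for Ccr7, 0.697 for S1pr2 and 0.623 for Gpr183. These 6 points share the genotype difference and Control replicate 3, so the values only describe these libraries. The 3 tested genes whose log2 CPM was most like that of Gpr183 over the 6 libraries were Atp6v0a2 (r = 0.9993), a subunit of the proton pump, and the predicted genes Gm16386 (r = 0.9977) and Gm14501 (r = 0.9957), the last with at most 17.96 normalized counts in a library. None of them passed the threshold (edgeR adjusted p of 0.277, 0.204 and 0.112).

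The balance between receptors was compared within each library, where the depth cancels. The ratio of Gpr183 to S1pr2 per length, which sets outer follicle against germinal center position, was 88.5, 83.2 and 57.9 in Control and 94.8, 98.4 and 93.4 in Prmt1-null libraries. All 3 Prmt1-null values were above the Control values (log2 difference 0.344, two-sided exact permutation p = 0.10, the smallest that 3 against 3 can give, and 0.4 adjusted over 4 ratios), and the log2 difference was 0.155 without Control replicate 3. The ratio of Cxcr4 to Cxcr5, of dark zone to light zone receptor, was 0.310, 0.298 and 0.361 in Control and 0.278, 0.316 and 0.298 in Prmt1-null libraries and overlapped (log2 difference −0.116, exact permutation p = 0.5). The ratios of Ccr7 to Cxcr5 and of S1pr1 to S1pr2 overlapped as well, with log2 differences of 0.086 (exact permutation p = 0.2) and 0.024 (exact permutation p = 0.9). Without Control replicate 3 the differences were −0.033 for Cxcr4 to Cxcr5, 0.134 for Ccr7 to Cxcr5 and −0.118 for S1pr1 to S1pr2. With each library left out in turn, these differences ran from −0.172 to −0.033, from 0.047 to 0.134 and from −0.118 to 0.113, in the same order.

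Other receptors of the same kinds were set beside the 8. Of 32 further chemokine, S1P, lipid and orphan receptors, 24 could be tested, and 0 passed the edgeR threshold, beside 1.18% of all tested genes. An unadjusted p under 0.05 was found for 5 of the 24, beside 13.5% of all tested genes, and the median log2 fold change was 0.002. S1pr3 had a level per length near that of S1pr1, at 26.5 to 31.7 CPM per kilobase of exon, and did not differ past the threshold (log2 fold change −0.038, edgeR adjusted p = 0.876). S1pr5 had at most 10 raw counts in any library. The smallest p was that of Ccr4, a receptor for CCL17 and CCL22, with 2764, 2442 and 3055 normalized counts in Control and 3341, 3458 and 3739 in Prmt1-null libraries (log2 fold change 0.35, standard error 0.0833, edgeR adjusted p = 0.0588). Ccr4 passed the threshold in 4 of the 8 alternatives with all libraries and without Control replicate 3 (adjusted p = 0.0137). Cnr2, the cannabinoid receptor of B cells, followed (log2 fold change 0.20, edgeR adjusted p = 0.15). Cxcr3 had few counts, 26.73, 10.54 and 13.22 in Control and 59.74, 44.25 and 49.15 in Prmt1-null libraries (log2 fold change 1.61, edgeR adjusted p = 0.168). Over the 8 alternatives with all libraries its log2 fold change ran from 0.238 to 1.72. For Ccr4, Cnr2 and Cxcr3 the groups did not overlap, which was so for 6 of the 24, all higher in Prmt1-null iGBs, beside 9.95% of all tested genes in that direction. Ackr3 had the next smallest p and was lower (log2 fold change −0.364, edgeR adjusted p = 0.203), with overlapping groups. Of the 24 genes, 12 had a positive and 12 a negative log2 fold change.

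The ligands had few or no counts in the purified iGBs. Cxcl13, Ccl21a and Ccl20, and the oxysterol enzyme Cyp7b1, had 0 counts in every library, which allows up to 0.0478 to 0.0662 CPM (3 counts), and Ccl19 and Ch25h had 2 counts in 1 library each. Cxcl12, the CXCR4 ligand that stromal cells make, had normalized counts of 0, 10.54 and 2.204 in Control and 18.23, 9.218 and 31.19 in Prmt1-null libraries (edgeR adjusted p = 0.364). Its log2 fold change, 2.08, rested on these few counts and ran from 1.565 to 3.951 with 1 library left out, the highest without Control replicate 2, and was 0.092 with the DESeq2 prior. Of the 17 genes for ligands and the enzymes and transporters that make, break down or export S1P and oxysterols, 11 were tested, 0 passed the edgeR threshold (1.18% of all tested genes) and 2 had an unadjusted p under 0.05 (13.5% of all tested genes). Plpp1 (Ppap2a in the table), a lipid phosphatase, came nearest at a log2 fold change of 0.30 (edgeR adjusted p = 0.127), and it passed with DESeq2 (adjusted p = 0.0329). Of its exon bases, 25.8% are shared with a gene on the opposite strand. Sgpp1, an S1P phosphatase, was at −0.143 (edgeR adjusted p = 0.399) and Hsd3b7, which inactivates the oxysterol ligand, at −0.109 (edgeR adjusted p = 0.706), although 62.0% of the exon bases of Hsd3b7 are shared with another gene of the same strand.

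Downstream of the receptors, 1 of 37 tested genes for coupling and desensitization passed the threshold, beside 1.18% of all tested genes in either direction and 0.602% in the lower one. Pik3cg, the catalytic subunit of the PI3K that Gβγ activates, fell from 2629, 2323 and 2695 normalized counts in Control to 1553, 1588 and 1982 in Prmt1-null libraries. All Prmt1-null values lay below all Control values, and the log2 fold change was −0.58 (standard error 0.101, edgeR adjusted p = 0.0152). The call was lost without Prmt1-null replicate 1 (log2 fold change −0.509, adjusted p = 0.111) or replicate 2 (−0.521, adjusted p = 0.107), with folds close to that of all libraries. Its partner Pik3r5 was at −0.06 (edgeR adjusted p = 0.86). Gnai2, through which most chemokine receptors signal, had a log2 fold change of 0.016 (edgeR adjusted p = 0.947), and Gna13 and Arhgef1, which act below S1PR2, had −0.021 (edgeR adjusted p = 0.915) and −0.098 (edgeR adjusted p = 0.61). The receptor kinase gene Grk2 was at 0.007 (edgeR adjusted p = 0.975), and Cd69, whose product removes S1PR1 from the surface, at 0.029 (edgeR adjusted p = 0.881). Rgs1, which dampens chemokine receptor signals, was at −0.16 (edgeR adjusted p = 0.597), and at −0.033 without Control replicate 3. Rgs16 (0.925, edgeR adjusted p = 0.39) had at most 72.83 normalized counts in a library. Its log2 fold change ran from 0.172 to 0.93 over the 8 alternatives with all libraries. Coro1a, an actin regulator (0.132, edgeR adjusted p = 0.496), overlapped between the groups. The median of the 37 genes was −0.002, and 6 of them did not overlap, beside 19.9% of all tested genes.

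None of 23 transcription factor genes that act on B cell position or identity passed the edgeR threshold (1.18% of all tested genes), and 6 had an unadjusted p under 0.05 (13.5% of all tested genes). Klf2, which activates S1pr1, had 8083, 8338 and 11330 normalized counts in Control and 9721, 10990 and 9483 in Prmt1-null libraries, with its maximum in Control replicate 3 as for S1pr1 (log2 fold change 0.122, edgeR adjusted p = 0.68). Without that library its log2 fold change was 0.294 (edgeR adjusted p = 0.056). Foxo1, a dark zone factor, had 17140, 16320 and 18230 in Control and 15560, 15530 and 15610 in Prmt1-null libraries. The groups did not overlap, and the log2 fold change was −0.147 (standard error 0.0612, edgeR adjusted p = 0.301). The 3 factors with the smallest p were Klf3 (log2 fold change 0.20, edgeR adjusted p = 0.109), Bach2 (−0.22, edgeR adjusted p = 0.124) and Bcl6 (−0.19, edgeR adjusted p = 0.201), each with a gap between the 2 genotypes. Of the 23 genes, 6 did not overlap, 2 higher and 4 lower in Prmt1-null iGBs, beside 19.9% of all tested genes in either direction. With DESeq2, Klf3 (adjusted p = 0.0349) and Bach2 (adjusted p = 0.0196) passed, and Bach2 also passed with edgeR when genes with low counts were kept (adjusted p = 0.0452).

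Genes used to tell the zones apart were set beside the receptors. Of 11 dark zone genes, Cxcr4 and Foxo1 included, 10 had a negative and 1 a positive log2 fold change, with a median of −0.10. Of 13 light zone genes, 10 had a positive and 3 a negative one, with a median of 0.075. No gene of either list passed the edgeR threshold (1.18% of all tested genes), 5 dark zone and 4 light zone genes had an unadjusted p under 0.05 (13.5% of all tested genes), and whether the lists differ from other genes was not tested. The mitotic genes Ccnb2 (log2 fold change −0.26, edgeR adjusted p = 0.0678) and Hmmr (−0.22, edgeR adjusted p = 0.209) were lower in every Prmt1-null library than in any Control library. On the light zone list, Nfkbie, an inhibitor of NF-κB, had 0.28 (edgeR adjusted p = 0.0571), Il21r, the IL-21 receptor, 0.24 (edgeR adjusted p = 0.139) and Egr1, an early response gene, −0.47 (edgeR adjusted p = 0.162). With DESeq2, Ccnb2 (adjusted p = 0.0099), Nfkbie (adjusted p = 0.00626) and Il21r (adjusted p = 0.0142) passed. With edgeR and genes with low counts kept, Ccnb2, Nfkbie, Il21r and Egr1 (adjusted p = 3.8e-09) passed. Egr1 passed in only 1 of the 8 alternatives with all libraries. Its log2 fold change ran from −0.468 to −0.216 over them, and its adjusted p reached 0.359. The groups overlapped for Egr1, at 13630, 12020 and 18710 normalized counts in Control and 12950, 8674 and 10460 in Prmt1-null libraries. Without Control replicate 3, Hmmr (edgeR adjusted p = 0.048) and Nfkbie (edgeR adjusted p = 0.0191) passed, and Nfkbie also passed with sex in the model (edgeR adjusted p = 0.0406).

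**Figure D4:**
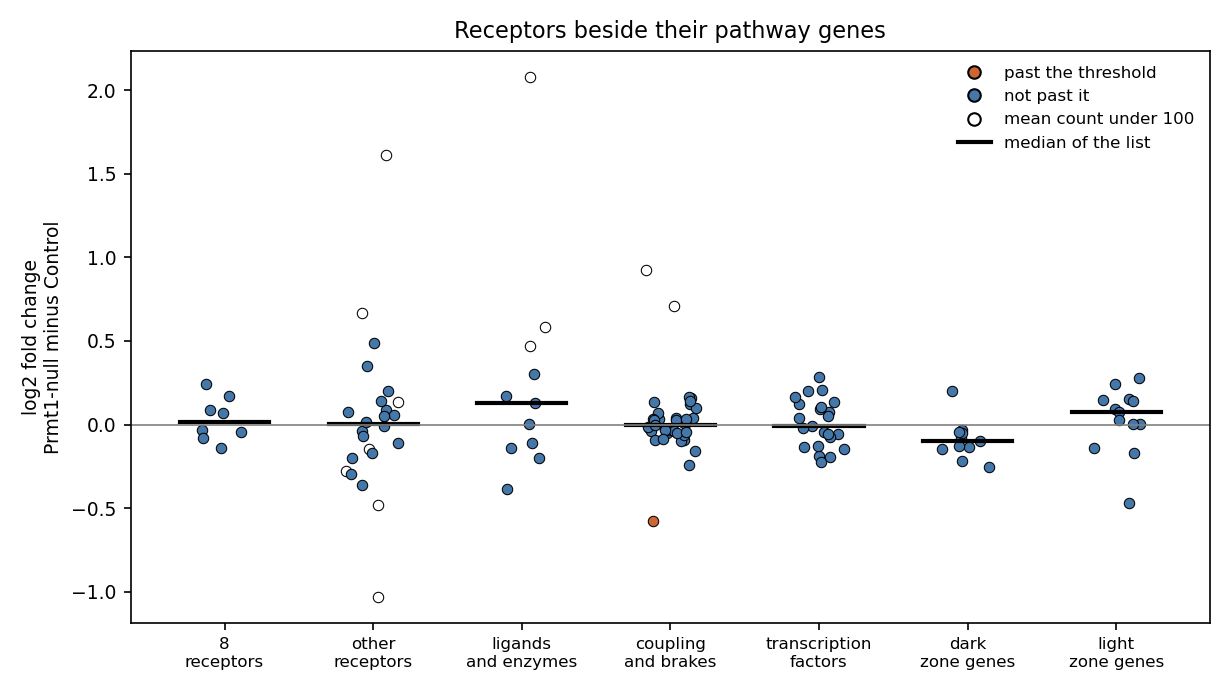
Log2 fold change (Prmt1-null minus Control) of every tested gene of the 7 lists, with 1 point per gene and a bar at the median of each list. Open points had a mean normalized count under 100, and the only point past the edgeR threshold is Pik3cg at −0.58.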

How the data were processed

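RNA-seq libraries of iGBs from 3 Control and 3 Prmt1-null mice were analyzed, with groups, sexes and replicate numbers taken from the labels. The authors used Trimmomatic (0.32), STAR (2.3.0e) on mm10, and featureCounts (1.4.4) over Ensembl exons, counting primary alignments with 2 locations or fewer. Raw counts for each gene were deposited, with no normalization or filter. The library kit was stranded, but the strand setting of the counting is not given in the sources used here. Of the values from 1 to 20 in the table, 71.1% were even, and whether both reads of a pair were counted is not given either, so no counting intervals are printed. Floors cover counting error only.

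The 398 chromosome Y genes were left out as in the study's methods. In R 4.3.3, edgeR 4.0.16 removed genes with low counts (filterByExpr, minimum count 10), normalized by TMM and tested 18268 genes with the quasi-likelihood test (Benjamini-Hochberg adjustment, biological coefficient of variation 0.154). A gene was called when its adjusted p was below 0.05 and its normalized counts averaged over 100. The study's methods name DESeq2, which is an alternative here. Standard errors and 95% intervals came from the fold change and the F statistic. Ratios of receptors were compared by exact permutation (20 arrangements, two-sided). Positions, exon lengths and overlaps came from GENCODE M21 (GRCm38), matched by gene ID or symbol, and promoters from RefSeq. The fits were checked on simulated data.

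The alternatives were DESeq2 1.42.0 with and without a prior on fold changes, limma-voom (3.58.1), median-of-ratios size factors, all genes kept whatever their counts, a block for the replicate number, sex as a covariate, chromosome Y genes kept, other call rules, other lengths and each library left out in turn, for the ratios chosen after seeing the data. The receptors and the gene lists were chosen with earlier results of these data known. Named are the receptors, Prmt1, genes called in a list, the 3 genes with the smallest p in each list, the 3 genes most like the receptor with the smallest p, and a few regulators, couplers and ligands picked by function. Ubac2, Bcl9l, S1pr3, S1pr5, Ackr3, Pik3r5, the ligand genes at 0 and the marker genes were added afterwards. Some genes that these rules name are not reported here.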

Additional observations from a re-analysis of the deposited data

How the results depend on the processing

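The number of receptors past the threshold, 0 with edgeR, was 1 with DESeq2, with DESeq2 and a prior on fold changes, with limma-voom and without a filter on low counts, each time Gpr183, and ran from 0 to 1 with 1 library left out. It was 0 with median-of-ratios size factors, with sex in the model, with chromosome Y genes, with no minimum on the mean and with a 1.4-fold rule. Over all genes, 216 passed, and 706 with DESeq2, 705 with its prior, 675 without the filter, 87 with the 1.4-fold rule and 31 to 340 with 1 library left out (31 without Prmt1-null replicate 2, 340 without Control replicate 3, and 128, 59, 51 and 77 without Control replicates 1 and 2 and Prmt1-null replicates 1 and 3), and the cause was not tested. Same-numbered libraries come from different mice and did not deviate together (r of −0.072, 0.048 and −0.077), and with the replicate number as a block 151 genes and 0 receptors passed.

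Of 546 values of single genes under the alternatives, 501 kept direction and side of the threshold, 32 gained and 2 lost the call, and 11 turned sign, all with 1 library left out. Over the fits with 1 library left out, Ccr6 ran from −0.073 to −0.012, S1pr4 from 0.027 to 0.150, Egr1 from −0.623 to −0.26, Hmmr from −0.293 to −0.135, Sgpp1 from −0.193 to −0.067, Hsd3b7 from −0.208 to −0.05, Arhgef1 from −0.165 to −0.048, Coro1a from 0.05 to 0.222, Klf2 from 0.037 to 0.294, Rgs1 from −0.223 to −0.033, Cxcr4 from −0.085 to 0.063, S1pr1 from −0.127 to 0.009, S1pr2 from −0.265 to 0.127, Cd69 from −0.018 to 0.061, Gna13 from −0.055 to 0.013, Gnai2 from −0.041 to 0.075 and Grk2 from −0.013 to 0.042. With 3 mice per group, differences within the intervals given for each receptor could not be resolved.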
